A study of Homo sapiens with 2 samples.

Results

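Respiratory complex I, the NADH:ubiquinone oxidoreductase of the mitochondrial inner membrane, was followed at the RNA level in ACHN renal carcinoma cells. Its members were taken by gene symbol, as the NDUF genes of the A, B, C, S and V series, NDUFAB1 and the MT-ND genes, and 46 of the 12014 listed genes matched. Of these, 44 encode structural subunits, 37 in the nucleus and 7 on the mitochondrial chromosome, and all 44 had a mean level of at least 1 FPKM (fragments per kilobase of transcript per 1000000 mapped fragments). The other two, NDUFA4 and NDUFA4L2, carry the family name, but NDUFA4 is a subunit of complex IV (cytochrome c oxidase) and NDUFA4L2 is its paralog. Assembly factors named NDUFAF were not members.

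One library came from ACHN cells infected with a lentiviral shRNA against KIAA1429 (shKIAA1429), the scaffold subunit of the m6A methyltransferase complex, and 1 from cells infected with a control shRNA (shNC). Both were puromycin-selected stable lines, the RNA was poly(A)-selected, and the libraries were strand-specific. The sample labels call the first a knockout and both total RNA, whereas the study's methods describe an shRNA and the labels' protocol an oligo(dT) selection. Each group is a single library, so the spread between replicates is unknown and nothing was tested, and since the authors deposited FPKM without read counts the depth is unknown too. In bulk RNA, fewer cells of a kind and less RNA per cell cannot be told apart. The targeted gene, listed as VIRMA, stood at 3.22 FPKM in the shKIAA1429 library, 82.1% of its 3.92 FPKM in the control. Among renal epithelial markers, PAX8 (64.7 FPKM with shNC and 104 FPKM with shKIAA1429), PAX2 (31.4 and 39.3 FPKM) and KRT18 (67.4 and 78.6 FPKM) were higher with shKIAA1429, and KRT8 (78.3 and 74.6 FPKM), EPCAM (32.8 and 23.1 FPKM) and CDH16 (6.61 and 4.29 FPKM) were lower. Of 7 markers of leukocytes, endothelium and fibroblasts, 1 was listed, COL1A1 at 1.08 and 1.62 FPKM, and the others had no row.

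Complex I takes electrons from NADH, passes them through flavin and iron-sulfur clusters to ubiquinone, and pumps protons across the inner membrane. A peripheral arm holds the NADH-oxidising N module and the ubiquinone-reducing Q module, and a membrane arm is built around the mitochondrially encoded ND subunits, so the enzyme needs the output of both genomes. Core subunits carry the catalysis, and the supernumerary subunits surround them. The 13 protein-coding genes of the mitochondrial chromosome are copied as long precursors from either strand and cut into single mRNAs, and MT-ND6 is the gene of this set on the light strand.

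The mitochondrial and nuclear subunits differed between the libraries by unlike amounts. Changes are log2(FPKM + 1) in shKIAA1429 minus log2(FPKM + 1) in shNC, where the added 1 shrinks the differences of weakly expressed genes. Of the 7 MT-ND genes, 6 were lower with shKIAA1429, by 0.41 to 0.51 on the log2 scale, and the median of the 7 was -0.45. The 37 nuclear subunits had a median of -0.07, with 20 below 0 and 17 above 0, whereas 42.7% of the 10708 genes with a mean of at least 1 FPKM were below 0. The median of all these genes was 0.06, with the middle 50% from -0.15 to 0.27. Relative to the median of all genes, the nuclear median was -0.12 and the mitochondrial median -0.51. With the values of both libraries scaled to sum to 1000000, the nuclear median became 0.11, the mitochondrial median -0.27 and that of all genes 0.24, and the relative medians were -0.13 and -0.51. The difference of nuclear minus mitochondrial medians was 0.38 and was 0.38 to 0.42 under the alternatives tried. Scaling and centring shift all genes by nearly the same amount, so they could hardly change this difference. The value of 0.42 came from leaving out members that overlap a listed gene.

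**Figure D1:**
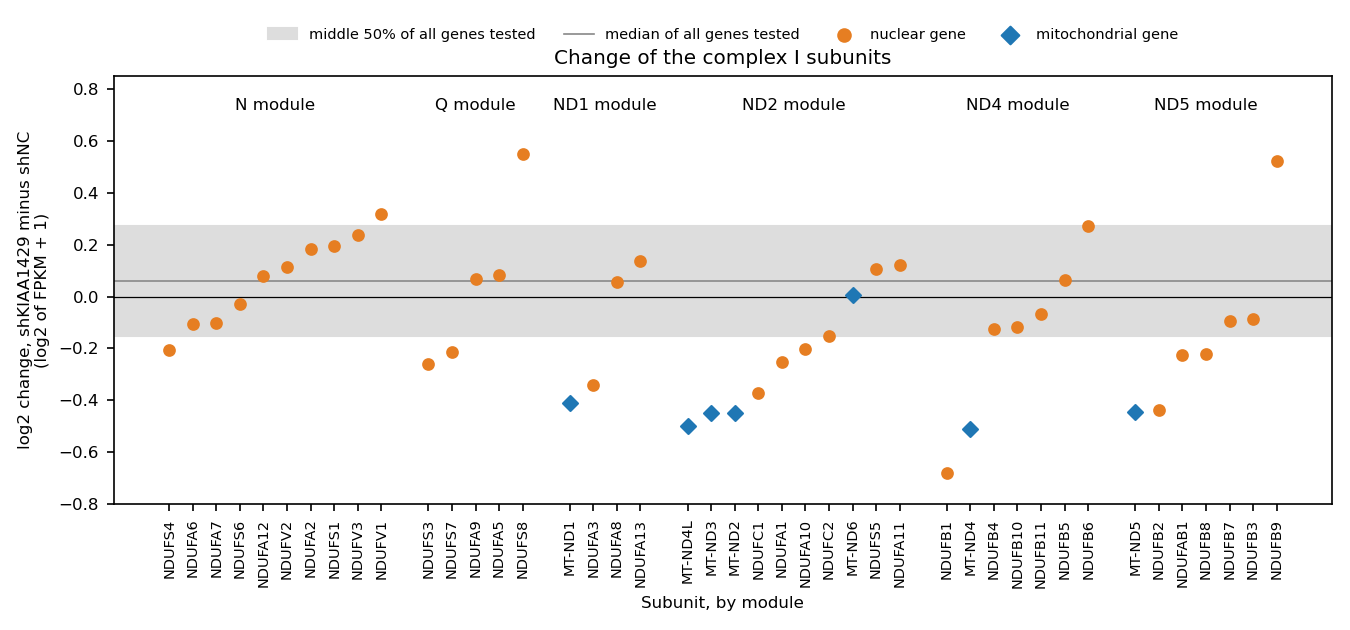
Log2 change of the complex I subunits, grouped by module and with 1 nuclear subunit not drawn, with nuclear genes as circles, mitochondrial genes as diamonds, and the middle 50% of all genes tested as a grey band. Of the 7 diamonds, 6 lie between -0.51 and -0.41 and MT-ND6 lies at 0.01, while 26 circles lie within 0.25 of 0.

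The annotated ends of the 7 mitochondrial genes are shown because several set these mRNAs apart from nuclear ones and bear on a poly(A)-selected library. An annotated end need not be the end of the mRNA, and that of MT-ND4L lies within the mRNA it shares with MT-ND4. In human mitochondria several reading frames end in an incomplete stop codon that the poly(A) tail completes, and MT-ND6 mRNA is known to lack such a tail. The last 27 bases of each transcript in GENCODE 29 follow, 5′ to 3′, with the encoded stop bases in capitals.
MT-ND1: aatctccagcattccccctcaaaccTA
MT-ND2: tctccccttttatactaataatcttaT
MT-ND3: tacaaaaaggattagactgaaccgaaT
MT-ND4L: cataacctaaacctactccaatgcTAA
MT-ND4: ccgacatcattaccgggttttcctctT
MT-ND5: atcctaaccctactcctaatcacaTAA
MT-ND6: gtaattgagattgctcgggggaatAGG

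MT-ND1, MT-ND2, MT-ND3 and MT-ND4 need added adenines for a full stop, and MT-ND4L, MT-ND5 and MT-ND6 encode all 3 bases. The positions of the 7 genes in the files and in GENCODE 29 are identical. MT-ND1 (chrM:3307-4262), at the joint between the arms, was at 10774 FPKM with shNC and 8098 FPKM with shKIAA1429. MT-ND2 (chrM:4470-5511), an antiporter-like proton-pumping subunit, was at 6687 and 4896 FPKM. MT-ND3 (chrM:10059-10404), a small subunit near the ubiquinone site, was at 5538 and 4054 FPKM. These 3 genes were at 73.2% to 75.2% of their control level. MT-ND4 (chrM:10760-12137), another antiporter-like subunit, was at 11633 and 8164 FPKM. MT-ND5 (chrM:12337-14148), the antiporter-like subunit at the far end of the membrane arm, was at 4378 and 3215 FPKM. MT-ND4L (chrM:10470-10766), a small membrane subunit, was at 10660 and 7534 FPKM. Among the heavy strand genes with an incomplete stop, the changes were -0.51 for MT-ND4, -0.45 for MT-ND3 and MT-ND2 and -0.41 for MT-ND1. MT-ND5, with a complete stop, was at -0.45. MT-ND4L, at -0.50, shares its mRNA with MT-ND4 and is not a separate case. With MT-ND5 alone on the other side, whether the kind of stop goes with the change cannot be told.

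MT-ND6 (chrM:14149-14673, minus strand), a membrane subunit read from the light strand, was at 468 FPKM with shNC and 470 FPKM with shKIAA1429. It was the lowest of the 13 mitochondrial genes in both libraries and the only one of them not lower with shKIAA1429, at a log2 change of 0.01, which became -0.05 after centring on the median of all genes and 0.19 after scaling to a sum of 1000000. Its level was 10.7% of that of its neighbour MT-ND5 with shNC and 14.6% with shKIAA1429. Relative to the median of the 13 genes in the same library, a ratio that does not depend on library scaling, MT-ND6 went from 0.0439 to 0.0624, a log2 difference of 0.51. For the other 6 MT-ND genes this difference lay between -0.01 and 0.09. MT-ND4L was itself the median gene in both libraries, so its own difference is 0 by construction and all these ratios are to MT-ND4L. MT-ND6 also differs from them in strand and in its tail, and the part of either in this value was not tested.

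MT-ND4L and MT-ND4 lie on 1 bicistronic mRNA and share 7 bases, printed in capitals within chrM:10744-10782 on the plus strand, because reads over them cannot be assigned to either gene.
MT-ND4L and MT-ND4 junction: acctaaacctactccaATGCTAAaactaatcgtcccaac

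Their FPKM ratio was 0.916 with shNC and 0.923 with shKIAA1429. Among the MT-ND genes the order was MT-ND4, MT-ND1, MT-ND4L, MT-ND2, MT-ND3, MT-ND5 and MT-ND6 with shNC, and it was the same with shKIAA1429. With 1 library per group the spread behind neighbouring levels, such as MT-ND1 and MT-ND4L, is not known. GENCODE 29 names 215 pseudogene copies of the 7 MT-ND genes in the genome, so some of their reads may have matched elsewhere.

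**Figure D2:**
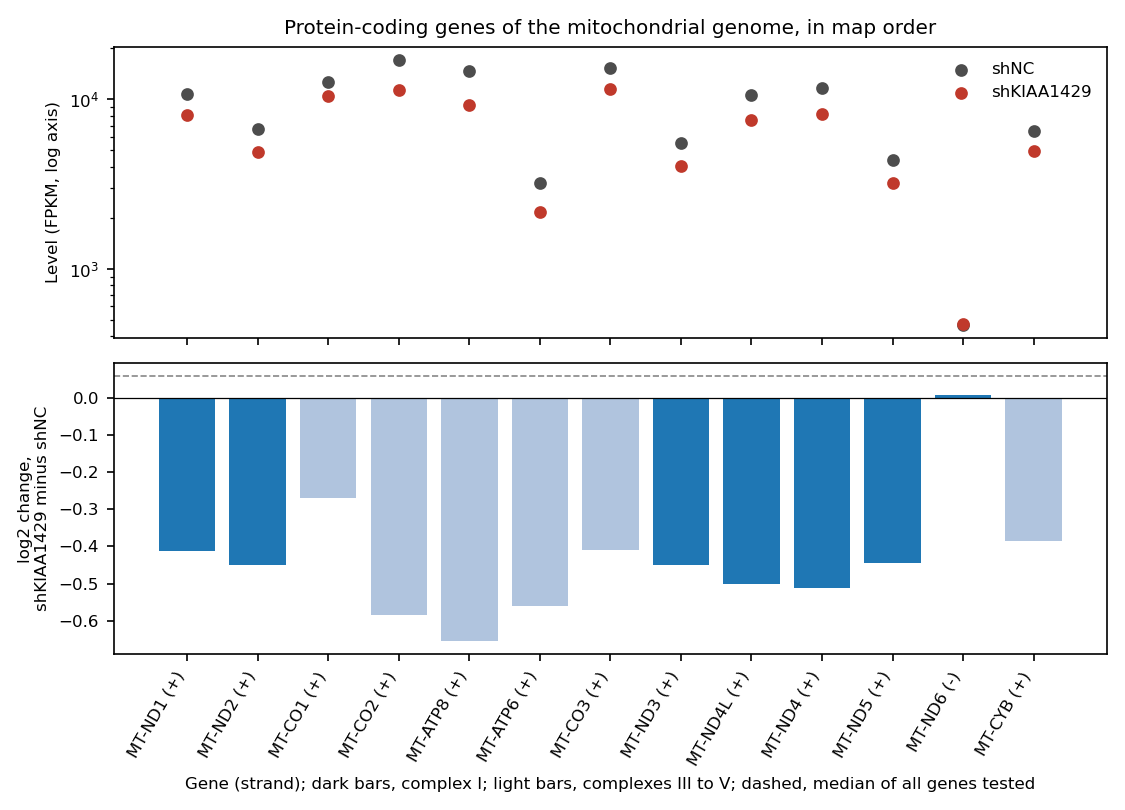
Level (upper panel, FPKM on a log axis) and log2 change (lower panel) of the 13 protein-coding genes of the mitochondrial chromosome in map order, with the strand of each in brackets, dark bars for complex I and light bars for complexes III to V. The bars of 12 genes lie between -0.65 and -0.27, and MT-ND6, whose points from both libraries coincide near 470 FPKM, stands at 0.01.

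The 6 mitochondrial genes of complexes III to V were all lower as well, with a median of -0.49 and a range from -0.65 for MT-ATP8 to -0.27 for MT-CO1. The 6 heavy strand MT-ND genes lay within this range. The 13 genes summed to 119460 FPKM with shNC and 86238.5 FPKM with shKIAA1429, or 42.2% and 34.6% of the listed sum. Since FPKM is relative to all mapped fragments, a lower share of these genes is not separable here from a higher share of the rest. The 7 MT-ND genes summed to 50137 and 36431 FPKM, a difference of -27.3%, and the 37 nuclear subunits to 996 and 979 FPKM, a difference of -1.71%. The MT-ND genes made up 98.1% of all complex I FPKM with shNC and 97.4% with shKIAA1429. The median MT-ND level was 389 times the median nuclear level with shNC and 296 times with shKIAA1429.

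The 37 nuclear subunits are present once per complex, apart from NDUFAB1, yet their mRNA levels spanned 50.4-fold with shNC, from 4.04 FPKM for NDUFS7 to 203.3 FPKM for NDUFS5, and 65.3-fold with shKIAA1429, from 3.35 to 219 FPKM for the same genes. The middle 50% lay between 9.72 and 24.9 FPKM with shNC and between 8.98 and 28.6 FPKM with shKIAA1429. NDUFS5, a small twin-cysteine-motif protein of the intermembrane space side, held 20.4% of the nuclear sum with shNC and 22.4% with shKIAA1429. The next highest were NDUFA1, a short membrane anchor subunit, at 93.4 and 78.3 FPKM and NDUFB7, another twin-cysteine-motif protein, at 81.0 and 75.7 FPKM. By the mean of both libraries the lowest were NDUFS7, which holds the terminal iron-sulfur cluster, at 4.04 and 3.35 FPKM, NDUFB5 at 4.46 and 4.71 FPKM, and NDUFS3, a core Q module subunit, at 5.66 and 4.56 FPKM. By module the Q module had the lowest nuclear median in both libraries, 6.80 FPKM with shNC and 7.22 FPKM with shKIAA1429. The ND1 module (24.5 FPKM) and the ND5 module (24.3 FPKM) were highest with shNC, and with shKIAA1429 they were at 19.1 and 24.8 FPKM.

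**Figure D3:**
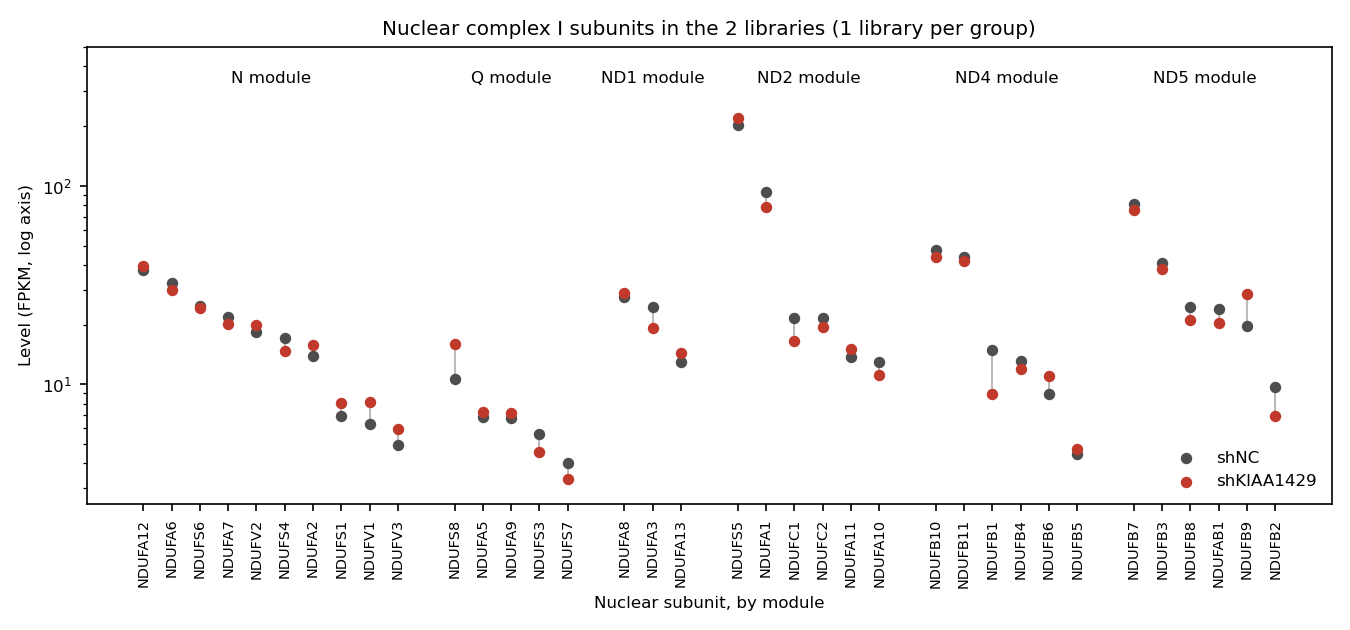
Level of the nuclear complex I subunits (FPKM, log axis) in the shNC and shKIAA1429 libraries, joined by a line and ordered within each module by the shNC level. NDUFS5 stands above all others at 203.3 and 219 FPKM, and wide gaps between libraries are seen for NDUFB1, NDUFS8 and NDUFB9; 1 nuclear subunit is not drawn.

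Against the fold limit of 1.5 on the log2 scale named in the study's methods, 0 of the 44 subunits passed in either direction, where 0.252% of all genes were lower and 0.392% higher by more than this. At such shares 0 of 44 cannot be read as a difference from all genes. The study set this limit on DESeq2 fold changes together with a p-value limit. Here it was set on log2(FPKM + 1) differences, which are shrunken, and without a p-value. A second limit of 0.5 was passed downward by 1 nuclear subunit, NDUFB1, and by 2 MT-ND genes, MT-ND4 and MT-ND4L, where 6.12% of all genes were lower by more than 0.5. It was passed upward by 2 nuclear subunits, NDUFS8 and NDUFB9, where 9.92% of all genes were higher by more than 0.5. Nuclear counts of 1 and 2 among 37 are too small to be read as a difference from all genes. MT-ND4L stood at the limit, and after rescaling to a sum of 1000000 no MT-ND gene passed 0.5, while after centring 5 did.

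NDUFB1 (ENSG00000183648.9_2, chr14:92582466-92588261 of GRCh37, minus strand), a single-pass membrane subunit beside ND4, was at 15.0 FPKM with shNC and 8.98 FPKM with shKIAA1429. Its log2 change of -0.68 was the lowest of the 44. NDUFS8 (ENSG00000110717.12_3, chr11:67798084-67804111, plus strand) carries the iron-sulfur clusters that lead into the Q module. It was at 10.6 and 16.02 FPKM, a log2 change of 0.55, the highest of the 44 subunits. NDUFB9 (ENSG00000147684.7_2, chr8:125551344-125580751, plus strand), a LYR-motif protein that holds the acyl carrier NDUFAB1 on the membrane arm, was at 19.6 and 28.6 FPKM, a log2 change of 0.52. After centring, NDUFS8 was at 0.49 and NDUFB9 at 0.46. NDUFAB1 itself was at 24.0 and 20.3 FPKM. NDUFA6, the LYR-motif subunit that holds another copy of NDUFAB1 on the peripheral arm, was at 32.4 and 30.0 FPKM.

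In the N module, which holds 10 nuclear subunits, the median was 0.10, with 6 genes above 0. Of all 10708 genes tested, 6134 were above 0. NDUFV1, the flavin- and NADH-binding core subunit, was at 6.30 and 8.11 FPKM, a log2 change of 0.32, and NDUFV3, a supernumerary subunit beside it, at 4.93 and 5.99 FPKM, a log2 change of 0.24. The core iron-sulfur subunits NDUFS1 (0.19) and NDUFV2 (0.12) and the supernumerary NDUFA2 (0.18) and NDUFA12 (0.08) were also above 0, while NDUFS4 (-0.21), NDUFA6 (-0.11), NDUFA7 (-0.10) and NDUFS6 (-0.03) were below.

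In the Q module of 6 nuclear subunits the median was 0.08 and the members went apart. NDUFS8, described above, had the highest change of the module. NDUFA5 (0.08) and NDUFA9 (0.07) were near 0. NDUFS3 (-0.26) and NDUFS7 (-0.21), both core subunits of the same module, were below 0.

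In the membrane arm the nuclear medians were 0.06 for the 3 of the ND1 module, -0.18 for the 6 of the ND2 module, -0.09 for the 6 of the ND4 module and -0.16 for the 6 of the ND5 module. That of the ND1 module was close to the 0.08 of the Q module and the 0.06 of all genes. Those of the ND2, ND4 and ND5 modules were lower than both. In the ND1 module NDUFA3 was at 24.5 and 19.1 FPKM (-0.34), and NDUFA8 (0.06) and NDUFA13 (0.14) were above 0. In the ND2 module NDUFC1 was at 21.7 and 16.5 FPKM (-0.37), followed by NDUFA1 (-0.25), NDUFA10 (-0.20), NDUFC2 (-0.15), NDUFS5 (0.11) and NDUFA11 (0.12). In the ND4 module NDUFB6 was at 8.93 and 11.0 FPKM (0.27), while NDUFB4 (-0.13), NDUFB10 (-0.12), NDUFB11 (-0.07) and NDUFB5 (0.07) stood closer to 0. In the ND5 module NDUFB2 was at 9.72 and 6.92 FPKM (-0.44), and NDUFAB1 (-0.23), NDUFB8 (-0.22), NDUFB7 (-0.10) and NDUFB3 (-0.09) were also below 0.

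The signs near 0 depend on scaling. After rescaling to a sum of 1000000, NDUFA6, NDUFA7, NDUFB3, NDUFB4, NDUFB7, NDUFB10, NDUFB11, NDUFC2, NDUFS6 and the complex IV subunit NDUFA4 were above 0, and after centring NDUFA8 was below 0.

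The 7 nuclear core subunits had a median of 0.19 with 5 above 0, and the 30 nuclear supernumerary subunits a median of -0.09 with 12 above 0. Of all 10708 genes tested, 6134 were above 0, and 5 of 7 is too small a count to be read as a difference from them. The difference of 0.29 between the core and supernumerary medians was 0.29 to 0.31 under the pseudocount, scaling and centring alternatives. These were applied to it after seeing the data. Scaling and centring could hardly change it, since they shift all genes by nearly the same amount. After rescaling to a sum of 1000000 the supernumerary median was 0.09. Annotated transcript length moved with the change as well. The longest coding transcript of the nuclear subunits had a median of 1256 bases, against 3368 bases for all genes. These lengths come from the annotation, such as 11819 bases for NDUFS1, and which transcripts the cells held was not examined. The 17 subunits under 1000 bases had a median change of -0.10, against -0.09 for the 418 genes of that length. The 11 subunits of 2000 bases or more had a median of 0.08, the same as the 0.08 of the 8350 genes of that length. The 9 between had a median of -0.11, against -0.04 for 1880 genes. Across the 37 subunits Spearman's rho between change and length was 0.25, and across all genes it was 0.19, in the same pair of libraries and over genes that are not independent replicates. The part of length in the changes of single subunits was not tested.

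**Figure D4:**
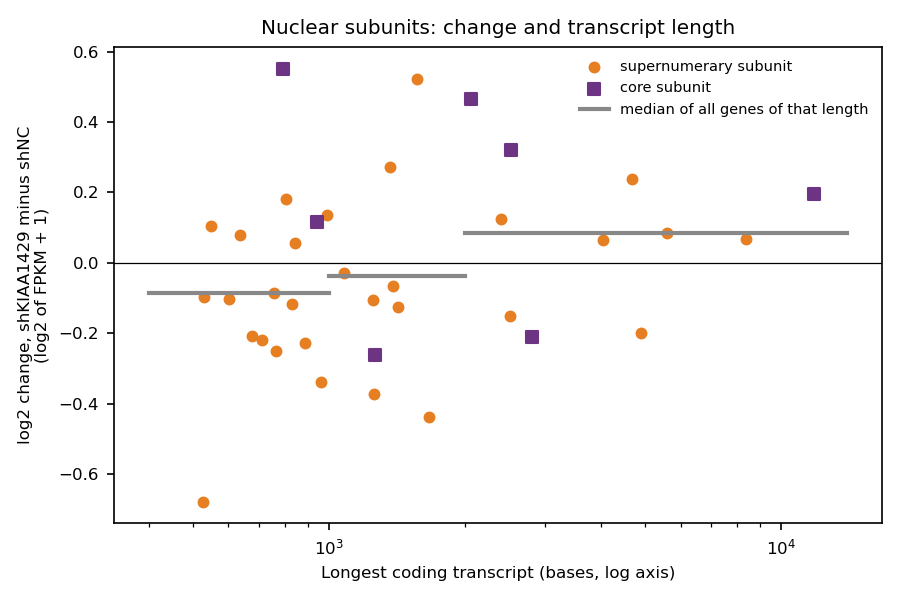
Log2 change of the 37 nuclear subunits against the length of the longest coding transcript in GENCODE 29 (log axis), with core subunits as squares and grey lines for the median of all genes of that length. The grey lines step from -0.09 to 0.08 with length, and 5 of 7 squares lie above 0, where 6134 of all 10708 genes tested do.

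Same-strand overlaps with other listed genes were found for 6 nuclear members, for which the deposited levels may rest on the assignment of shared reads. Overlap was judged by whole gene spans, introns included, and shared exons were not examined. With any gene of GENCODE 29, listed or not, 17 nuclear members overlap on their strand, among them NDUFC2 with NDUFC2-KCTD14. Leaving out overlapping members removed only those that overlap a listed gene. NDUFB2 overlaps ADCK2, which was at 8.95 and 5.98 FPKM, and their sum had a log2 change of -0.50. NDUFC1 overlaps MGARP, and the sum was at -0.35. NDUFS3 overlaps PTPMT1, and the sum was at -0.19. NDUFB8 overlaps AL133352.1, which was higher by 0.50, and the sum was at -0.07. NDUFA13 overlaps YJEFN3 and AC011448.1, which went in opposite directions, from 0.549 to 2.70 FPKM and from 9.16 to 3.66 FPKM, and the sum of the 3 genes was at -0.12, below 0 where NDUFA13 alone was above it. The sum of NDUFA11 and AC024592.3 was at 0.13. GENCODE 29 further names 55 pseudogenes for 18 of the 39 nuclear genes matched by symbol, and reads of these genes could be shared with the copies. There are 12 each for NDUFB4 and NDUFA5, 6 for NDUFS5, 5 for NDUFA3, 3 for NDUFB9, 2 for NDUFB1 and 0 for NDUFS8.

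NDUFA4, the complex IV subunit, was at 40.5 and 37.3 FPKM, a log2 change of -0.12. NDUFA4L2, a hypoxia-induced gene known for high levels in clear cell renal carcinoma, was at 1.82 and 2.02 FPKM, the lowest level of the 46 genes.

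Most of the nuclear subunits are transcribed from housekeeping promoters, and binding sites of YY1 and NRF1 are known from such genes. Promoter sequences of RefSeq (GRCh38.p14, 300 bases from 250 before to 50 after the gene's start) matched 32 of the 37. The letters AAGATGGCG of a YY1 site, searched on both strands, stood in 6 of the 32 (18.8%), against 4.92% of 9350 listed genes with a promoter. The letters GCGCATGCG of an NRF1 site stood in 5 of 32 (15.6%), against 4.28%. CCGGAAG, the ETS-type site, stood in 5 of 32 against 22.9% of genes, CACGTG, the E-box that MYC binds, in 3 of 32 (9.38%) against 12.96%, and GGGCGG, the SP1 box, in 21 of 32 (65.6%) against 78.4%. The 6 YY1-type matches are printed with their places: all lie on the strand of the gene, 10 to 25 bases past its start, and none of the other 4 motifs overlaps them. The searched letters hold ATG, and whether this is the start codon of each gene was not examined. Strand and position are therefore not separate evidence of YY1 sites, and the share of promoters with these letters may depend on where start codons lie. Elsewhere in these promoters, NDUFS7 also holds the NRF1-type and E-box letters, NDUFA7 the E-box letters, and NDUFA6, NDUFA7, NDUFB8 and NDUFS7 the SP1 box. The capitals mark the match.
NDUFS4 (chr5:53560651-53560677, plus strand): gcctgcagcAAGATGGCGgcggtgtca
NDUFB8 (chr10:100529837-100529863, minus strand): aagaaggtgAAGATGGCGgtggccagg
NDUFA9 (chr12:4649115-4649141, plus strand): ttgtgggaaAAGATGGCGgctgccgca
NDUFS7 (chr19:1383915-1383941, plus strand): gccgaggccAAGATGGCGgtgctgtca
NDUFA7 (chr19:8321344-8321370, minus strand): cgcggacggAAGATGGCGtccgccacc
NDUFA6 (chr22:42090730-42090756, minus strand): tgctttggcAAGATGGCGgggagcggc

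The 6 genes had log2 changes from -0.22 to 0.07 with a median of -0.16, and the 5 with the NRF1-type letters had changes from -0.21 to 0.08 with a median of -0.03. The medians were -0.10 for subunits with the ETS-type letters, -0.10 with the E-box letters and -0.10 with the SP1 box. YY1 itself was at 12.2 FPKM with shNC and 7.97 FPKM with shKIAA1429, and NRF1 at 2.62 and 2.39 FPKM. ESRRA, a nuclear receptor of respiratory genes, was at 9.40 and 6.96 FPKM. The median log2 change of the 7 listed regulators of nuclear respiratory genes with a mean of at least 1 FPKM was -0.0021. Of these, 4 were below 0 and 3 above it. Those above were GABPA (4.60 and 4.97 FPKM), GABPB1 (1.55 and 2.13 FPKM) and PPRC1 (15.5 and 16.4 FPKM). The part of any regulator in the changes of the subunits was not tested.

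The other nuclear mitochondrial lists had medians from -0.07 to 0.03, beside -0.07 for the complex I subunits. With a mean of at least 5 FPKM, the median relative to all genes went from -0.05 to -0.23 for the assembly factors and from -0.03 to 0.14 for the mitochondrial RNA factors. For the counts past 0.5 in these lists, 6.12% of all genes were lower and 9.92% higher by more than 0.5. Of all genes, 42.7% were below 0. The 40 nuclear subunits of complexes II to V, NDUFA4 aside, had a median of -0.07, with 24 below 0, 1 lower and 0 higher by more than 0.5. The gene past the limit was CYC1, cytochrome c1 of complex III, at 25.3 and 17.3 FPKM. In complex III UQCR11 was at 26.6 and 19.4 FPKM, and in complex II, which has no mitochondrially encoded subunit, SDHA, a catalytic subunit, was at 10.02 and 12.7 FPKM and SDHC at 14.8 and 12.5 FPKM. The 78 mitochondrial ribosomal protein genes had a median of -0.02, with 3 lower and 2 higher by more than 0.5, and the largest differences were those of MRPL16 (10.1 and 6.49 FPKM) and MRPS26 (19.1 and 12.8 FPKM).

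Among 19 assembly factors, which build the complex but are not part of it, 18 had a mean of at least 1 FPKM, with a median of 0.01. Of these, 2 were lower by more than 0.5, where 6.12% of all genes were. DMAC2, which acts in assembly of the distal membrane arm, was at 8.14 and 3.34 FPKM, a log2 change of -1.08. ECSIT, a member of the intermediate assembly complex, was at 7.23 and 3.30 FPKM, a log2 change of -0.94, and overlaps ZNF653 on its strand. Both changes were larger than that of any structural subunit.

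Of the 31 factors of mitochondrial transcription, RNA processing and DNA maintenance, 2 were lower and 2 higher by more than 0.5, and the median was 0.03. Of all genes, 6.12% were lower and 9.92% higher by more than 0.5. PNPT1, polynucleotide phosphorylase, was at 8.01 and 13.3 FPKM, a log2 change of 0.67, and MGME1, a mitochondrial DNA exonuclease, at 5.90 and 9.03 FPKM, a log2 change of 0.54. TFB1M, a methyltransferase of mitochondrial ribosomal RNA, was at 3.35 and 1.92 FPKM, a log2 change of -0.58. SLIRP, which binds mitochondrial mRNAs together with LRPPRC, was at 9.58 and 6.30 FPKM, whereas LRPPRC was at 26.4 and 33.1 FPKM. The mitochondrial RNA polymerase POLRMT was at 5.35 and 4.61 FPKM, its activator TFAM at 11.5 and 15.4 FPKM and the poly(A) polymerase MTPAP at 2.29 and 3.05 FPKM. The parts of these values in the lower MT-ND levels were not tested.

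**Figure D5:**
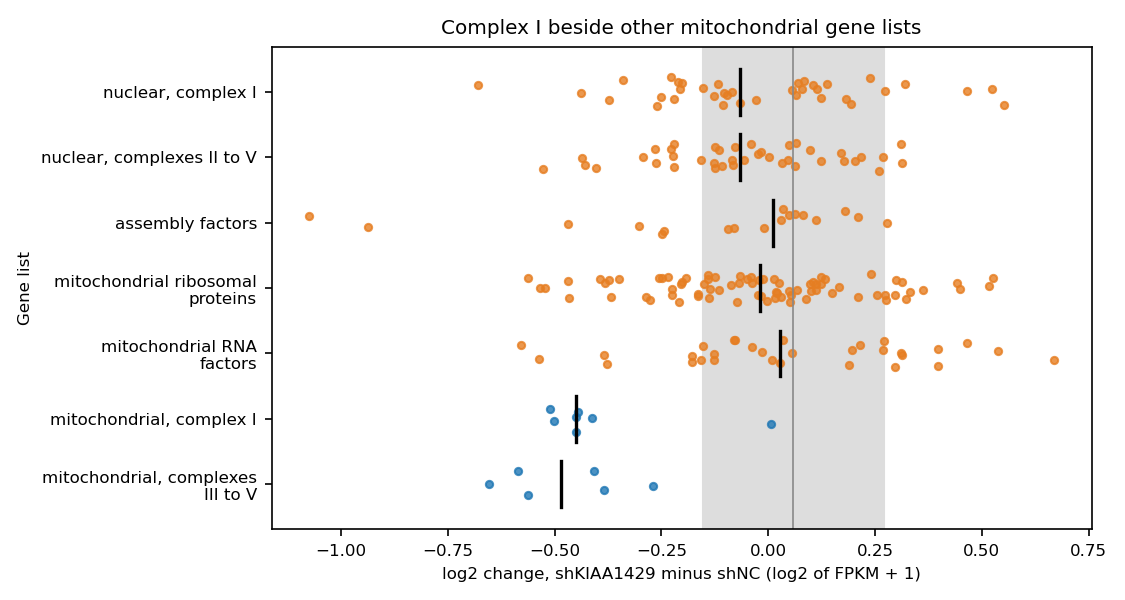
Log2 change of each gene in 7 mitochondrial lists, with a black line for the list's median and the grey band for the middle 50% of all genes tested. The medians of the 5 nuclear lists lie between -0.07 and 0.03 and those of the 2 lists from the mitochondrial genome at -0.45 and -0.49.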

How the data were processed

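Poly(A) RNA of ACHN cells was sequenced in 1 library per group, grouped by the labels' treatment field. The authors deposited FPKM values per gene, relative to gene length and library size. The submitters' processing notes name cutadapt 1.9, HISAT2 2.0.4, StringTie 1.3.4d, DESeq2 and edgeR without roles; the genome build is not given in the sources used here, but most gene identifiers of the nuclear members carry the suffix of GENCODE lifted to GRCh37. Low values were not multiples of a common step, so no read counts were recovered.

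Log2 changes used a pseudocount of 1, and genes whose FPKM averaged 1 or more over both libraries were kept. No test was possible with 1 library per group. Counts and medians were set beside those of all genes. The members and gene lists were chosen with earlier results of these data known. Genes named were every MT-ND gene, nuclear subunits past 0.5, the 3 highest and 3 lowest, the 2 largest changes per module and list, NDUFA4, NDUFA4L2, and members overlapping listed genes. All other subunits are given by their change, except 1 nuclear subunit that enters the counts and medians but whose values, like those of 1 renal marker, are not reported here. SLIRP, LRPPRC, POLRMT, TFAM, MTPAP, MGME1, NRF1, GABPA, GABPB1 and PPRC1 were added after their values were seen. Transcript sequences and lengths came from GENCODE 29 (10648 of 10708 genes matched) and promoters from RefSeq. Alternatives were another pseudocount, scaling, centring, filter and limit, and leaving out members that overlap a listed gene. The calculation of changes was tested on simulated data. Python 3.11.15, NumPy 2.4.6, pandas 2.3.3 and matplotlib 3.10.9 were used.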

Additional observations from a re-analysis of the deposited data

How the results depend on the processing

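Each value rests on 1 library per group, so no replicate could be left out, and depth is unknown, so counting error cannot be given. No paired analysis was possible because neither group has a second library. A move is counted here past 0.1 on the log2 scale, 1.5 times for counts or 1 percentage point for shares. The nuclear minus mitochondrial difference and the ratios of MT-ND genes to the mitochondrial median did not move past these bounds under the alternatives tried. For the difference, scaling and centring could hardly have moved it, so they say little about how firm it is. Rescaling to a sum of 1000000 shifted the median of all genes by 0.18, gave a nuclear median of 0.11 and a mitochondrial median of -0.27, and left 4 nuclear subunits higher by more than 0.5. After centring 0 were, and with a limit of 0.3 there were 4 lower and 4 higher. Without members that overlap a listed gene, which removes MT-ND4 and MT-ND4L, the mitochondrial share of complex I FPKM was 96.8% with shNC and 95.8% with shKIAA1429.

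Over all genes, a pseudocount of 0.1 gave 60 lower and 114 higher by more than 1.5, against 27 and 42. Rescaling gave 2560 higher by more than 0.5, against 1062, and 135 by more than 1.5. Rescaling outside the mitochondrial chromosome gave 57 lower and 109 higher by more than 1.5. A mean FPKM of at least 5 left 359 lower and 615 higher by more than 0.5 and 24 higher by more than 1.5, since fewer genes were counted. Relative to all genes, the same filter moved the medians of assembly factors to -0.23, mitochondrial RNA factors to 0.14, regulators to -0.25 and the NDUFA4 pair, of which only NDUFA4 was left, to -0.17. COL1A1, the sole marker of other cell types listed, lay 0.27 above the median of all genes, 0.47 above it with a pseudocount of 0.1, 0.40 after rescaling and 0.45 after rescaling outside the mitochondrial chromosome. Of 65 named genes, 62 moved under rescaling, and all 65 were higher under it. These moves follow from the scaling itself, which raised the median of all genes by 0.18. The cause of the other moves was not tested except where stated.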
